A study of Mus musculus with 6 samples.

Results

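The Hox genes encode homeodomain transcription factors that lie in 4 clusters, named a to d, and 38 of them were examined here in primordial germ cell-like cells with and without knockdown of Dazl, the gene of a germ cell RNA-binding protein. The members are the genes whose symbols the array files give as one of these 38 Hox names. A probe was found for 37 of them, all but Hoxc11, among 27677 genes on the array. Of the 37, 27 had a probe well above background on 2 or more of the 6 arrays and entered the tests, together with 20233 genes in all.

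The study used 1-colour Agilent expression arrays on RNA of cells made from male mouse embryonic stem cells of mixed C57BL/6 and 129SV background. All cells carried an Oct4-GFP transgene and a vector with a tdTomato marker, either a control vector or a Dazl knockdown vector (shRNA, a short hairpin RNA that lowers its target's mRNA). Feeder cells were depleted before differentiation, the cells were then cultured in differentiation medium for 9 or 12 days, and cells positive for both GFP and tdTomato were sorted by flow cytometry before RNA extraction. On each day there was a single array per vector (control, hairpin 1, hairpin 2), for 2 control and 4 knockdown arrays in total. The sort thus selects on activity of the Oct4 reporter. Whether a group's samples were separate cultures is not stated, so p-values measure the spread between these arrays only. Both day 9 and day 12 arrays lie on a slide and scan of their own, and each vector keeps 1 position on the slides. The day therefore cannot be told apart from the slide, nor the vector from its position.

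Hox proteins give cells their position along the head-to-tail axis, and within a cluster the paralog number follows gene order: genes of low number are used early and towards the head, genes of high number late and towards the tail. The clusters are classic targets of Polycomb repression in pluripotent and early germ cells, are opened by trithorax proteins, and respond to retinoic acid, Wnt and FGF signals and to the Cdx factors. In mouse primordial germ cells the somatic Hox programme is kept low, which is one of the features that sets them apart from the neighbouring mesoderm.

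The 6 upstream windows printed here belong to Hox genes whose 3 day 12 arrays all lay above their 3 day 9 arrays, a group described further on. They are the 250 bases before the annotated start in RefSeq, build GRCm38.p6, written 5′ to 3′ on the gene's strand with each CG dinucleotide in capitals. Hoxa9 lies at chr6:52227371-52227620 on the minus strand, and Hoxa10 has 2 annotated starts, with windows at chr6:52234940-52235189 and chr6:52240855-52241104 on the minus strand. The windows of Hoxb4 at chr11:96318017-96318266, Hoxd8 at chr2:74704365-74704614 and Hoxd10 at chr2:74691641-74691890 are on the plus strand.
Hoxa9: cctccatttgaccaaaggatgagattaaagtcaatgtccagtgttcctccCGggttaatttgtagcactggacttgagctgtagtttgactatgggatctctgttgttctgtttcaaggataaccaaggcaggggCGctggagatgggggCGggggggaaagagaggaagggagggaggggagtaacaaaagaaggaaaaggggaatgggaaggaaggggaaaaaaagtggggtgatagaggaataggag
Hoxa10, first start: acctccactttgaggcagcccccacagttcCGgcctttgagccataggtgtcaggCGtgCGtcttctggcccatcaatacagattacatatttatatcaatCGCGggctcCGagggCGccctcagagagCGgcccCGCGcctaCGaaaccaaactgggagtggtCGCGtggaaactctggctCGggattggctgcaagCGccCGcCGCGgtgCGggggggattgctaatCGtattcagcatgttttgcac
Hoxa10, other start: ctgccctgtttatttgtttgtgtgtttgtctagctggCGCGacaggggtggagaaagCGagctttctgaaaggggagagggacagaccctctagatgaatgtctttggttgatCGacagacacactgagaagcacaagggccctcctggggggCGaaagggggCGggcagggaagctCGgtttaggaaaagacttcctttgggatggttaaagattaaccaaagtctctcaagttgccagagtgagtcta
Hoxb4: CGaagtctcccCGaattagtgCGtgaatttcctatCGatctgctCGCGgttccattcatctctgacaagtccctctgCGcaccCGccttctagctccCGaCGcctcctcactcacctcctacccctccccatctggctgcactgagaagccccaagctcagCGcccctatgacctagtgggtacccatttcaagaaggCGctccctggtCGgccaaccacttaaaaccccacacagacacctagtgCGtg
Hoxd8: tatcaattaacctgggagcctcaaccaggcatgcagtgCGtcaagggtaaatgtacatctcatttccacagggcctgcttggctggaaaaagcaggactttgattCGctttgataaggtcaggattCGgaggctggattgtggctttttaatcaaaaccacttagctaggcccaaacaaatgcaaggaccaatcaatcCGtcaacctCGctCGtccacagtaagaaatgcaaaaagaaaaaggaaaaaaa
Hoxd10: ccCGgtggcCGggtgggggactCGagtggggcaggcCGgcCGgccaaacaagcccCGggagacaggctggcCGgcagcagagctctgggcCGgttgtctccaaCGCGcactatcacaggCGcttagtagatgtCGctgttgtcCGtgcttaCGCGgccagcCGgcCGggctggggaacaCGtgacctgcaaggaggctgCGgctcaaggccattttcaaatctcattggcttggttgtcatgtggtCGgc

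Of the 38 members, 22 had such a window, 24 windows in all. They held a median of 12.5 CG dinucleotides against 6 in all 32841 windows of the same length, and a median GC content of 58.6% against 52.4%. The windows printed ranged from 3 CG dinucleotides upstream of Hoxa9 to 20 upstream of Hoxd10 and of the Hoxa10 start at chr6:52234940-52235189. In these windows 5 motifs were searched on both strands. None contains another, though TTTATG shares its first 5 letters with TATAAA read on the other strand. The CCAAT box letters CCAAT were in 58.3% of the Hox windows and 33.9% of all windows, and the TATA box letters TATAAA in 16.7% and 12.4%. The retinoic acid receptor half-site letters AGGTCA were in 25% of Hox windows and 14% of all windows, among them Hoxb4, Hoxd8 and Hoxd10. The Cdx-type letters TTTATG were in 20.8% against 10.8%, and the Pbx and Hox composite letters TGATTNAT (N for any base) in 8.3% against 2.8%. A match is a stretch of letters and was not tested as a site.

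Dazl itself was checked first. Its brighter probe gave a processed signal of 1570 on the day 9 control array and 4190 on the day 12 control array. The signals under hairpin 1 were 79.3 at day 9 and 145 at day 12, and those under hairpin 2 were 154 and 178. Each knockdown array was thus at 3.54 to 8.27% of the same-day control, as its label has it. In limma across all genes the difference was -4.30 on the log2 scale (SE 0.28, adjusted p 0.0877), and it passed the threshold with the vector as a block (adjusted p 0.012).

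Hox transcripts were dim but not absent. Members passed the filter about as often as other genes, at 73.0% of the 37 Hox genes with a probe against 73.1% of all genes. Detection on all 6 arrays was reached by 20 Hox genes, 54.1%, against 66.9% of all genes. Processed signals of the 27 tested genes ran from 2.08 to 264, while the 75th percentile of all probes lay between 629 and 746 on the 6 arrays. Of the 27 genes, 19 stayed under a signal of 50 on every array. Signals of different probes depend on the probe, so genes are not ranked by level. The standard deviation of the background-subtracted negative control spots was 1.33 to 1.64 signal units.

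Detection was spread over the 4 clusters and over the paralog numbers. In cluster a, 7 of 10 members passed the filter, in cluster b 7 of 10, in cluster c 5 of 8 with a probe, and in cluster d 8 of 9. By position, 5 of 7 anterior members (paralogs 1 to 3), 10 of 15 central members (4 to 8) and 12 of 15 posterior members with a probe (9 to 13) passed. The number of members above background was 21, 23 and 23 on the day 9 control, hairpin 1 and hairpin 2 arrays, and 25, 26 and 24 on the day 12 arrays in the same order. Of all probes, 70.7, 70.3 and 71.4% were above background on the day 9 arrays and 73.3, 71.3 and 70.6% on the day 12 arrays. The 6 members above background on no array were Hoxa2, Hoxa5, Hoxb1, Hoxb8, Hoxc8 and Hoxd11. Hoxa11, Hoxb5, Hoxc5 and Hoxc10 were above background on 1 array each. Of the noncoding genes inside the clusters, the array carries Hoxaas2, Hoxaas3, Hoxd3os1 and 5730596B20Rik, and none of these 4 was above background on any array.

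**Figure D1:**
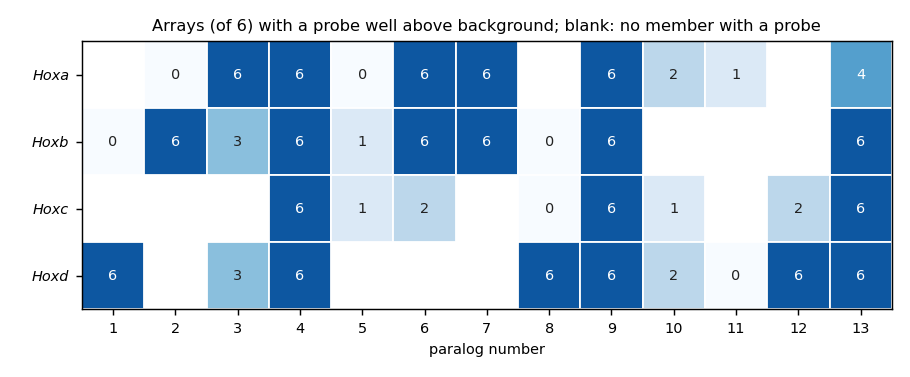
Number of the 6 arrays on which a Hox gene had a probe well above background, by cluster (rows) and paralog number (columns, 1 to 13), with darker cells for more arrays and blank cells where there was no member with a probe. Fully detected genes (6 of 6) occur in all 4 clusters, from Hoxd1 to Hoxd13.

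The level of a gene is given below as the log2 processed signal minus the array's 75th percentile, with the arrays always in the order control, hairpin 1, hairpin 2. In cluster a, Hoxa3, which patterns the pharyngeal arches, was at -2.88, -2.77 and -2.78 at day 9 and at -2.98, -2.97 and -2.86 at day 12. Hoxa4 was at -5.39, -5.12 and -5.00 and then at -5.01, -4.81 and -5.31. Hoxa6 was at -4.54, -4.61 and -4.68 and then at -4.81, -5.09 and -4.76. Hoxa3 varied little between the arrays, and the 3 day 12 values of Hoxa6 all lay below its day 9 values. Hoxa7 was at -3.25, -3.60 and -4.20 at day 9 and at -3.42, -2.85 and -2.90 at day 12. Hoxa9, a posterior gene known for its role in blood progenitors, was at -5.71, -5.91 and -5.98 and then at -5.58, -5.65 and -5.28. Both knockdown arrays of Hoxa7 lay below the control at day 9 and above it at day 12. Hoxa10, which patterns the uterus and the lumbar axis, was at -7.70, -8.06 and -8.49 at day 9, none above background, and at -7.27, -5.64 and -6.08 at day 12, where only the hairpin arrays were above background. Hoxa13, a gene of the distal limb and hindgut, was at -6.00, -6.90 and -6.71 and then at -5.83, -5.81 and -6.18. It was above background on all arrays except the day 9 knockdown arrays.

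In cluster b, Hoxb2, a hindbrain gene, was at -5.22, -4.70 and -5.10 at day 9 and at -4.62, -4.13 and -4.29 at day 12. Hoxb3 was at -6.42, -6.41 and -6.22 and then at -5.90, -5.96 and -6.76, and was above background on 3 of 6 arrays. Hoxb4, known for expanding blood stem cells when overexpressed, was at -5.35, -5.81 and -6.74 and then at -4.82, -5.31 and -5.34. The control was the highest of the 3 arrays for Hoxb4 on each day. Hoxb6 was at -1.98, -2.11 and -1.97 at day 9 and at -2.12, -2.23 and -2.16 at day 12, and so moved little. Hoxb7 was at -2.28, -3.32 and -3.12 and then at -2.03, -3.05 and -2.99. Hoxb9, a gene of the thoracic axis, was at -1.65, -2.66 and -3.54 and then at -1.41, -1.89 and -1.81. For Hoxb7 and Hoxb9 both controls lay above all 4 knockdown arrays. Hoxb13, the most posterior gene of the cluster, was at -4.87, -5.11 and -4.44 and then at -4.37, -4.73 and -5.01, with overlapping groups.

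In cluster c, Hoxc4 was at -2.98, -3.41 and -2.68 at day 9 and at -3.26, -3.41 and -3.24 at day 12. Hoxc6 was at -6.75, -6.39 and -7.03 and then at -7.06, -6.68 and -7.56, and was above background under hairpin 1 only, on both days. Hoxc9, which sets the thoracic identity of motor neurons, was at -3.57, -3.72 and -4.14 and then at -3.16, -2.83 and -2.96. All 3 day 12 values of Hoxc9 were above those of day 9. Hoxc12 was at -6.23, -7.15 and -6.64 and then at -5.77, -7.19 and -5.45, above background only on the day 12 control and hairpin 2 arrays. Hoxc13, a gene of hair and nail formation, was at -4.15, -5.03 and -4.34 and then at -4.46, -4.45 and -4.21, with the day 9 hairpin 1 array lowest.

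In cluster d, Hoxd1 was at -5.74, -5.50 and -6.28 at day 9 and at -6.31, -5.42 and -5.44 at day 12. Hoxd3 was at -6.50, -6.25 and -6.76 and then at -6.92, -6.30 and -6.28, and was not above background on either control. Hoxd4 was at -4.86, -4.63 and -5.02 and then at -5.23, -4.77 and -5.38. Hairpin 1 gave the highest Hoxd4 value on both days. Hoxd8 was at -5.76, -5.95 and -5.60 and then at -4.87, -5.22 and -4.82. Hoxd9 was at -4.88, -4.71 and -3.69 and then at -3.97, -3.73 and -3.66. Hoxd10, a gene of the lumbar cord and hindlimb, was at -6.86, -6.36 and -7.21, with no day 9 array above background, and then at -5.84, -5.93 and -6.27. The day 12 values of Hoxd8 and Hoxd10 lay above all their day 9 values, while the day 9 hairpin 2 value of Hoxd9 fell in its day 12 range. Hoxd12 was at -5.45, -5.38 and -5.51 and then at -5.97, -5.96 and -5.42. Hoxd13, which patterns the digits, was at -4.57, -4.62 and -4.79 and then at -4.62, -3.94 and -3.96, highest on the day 12 knockdown arrays.

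**Figure D2:**
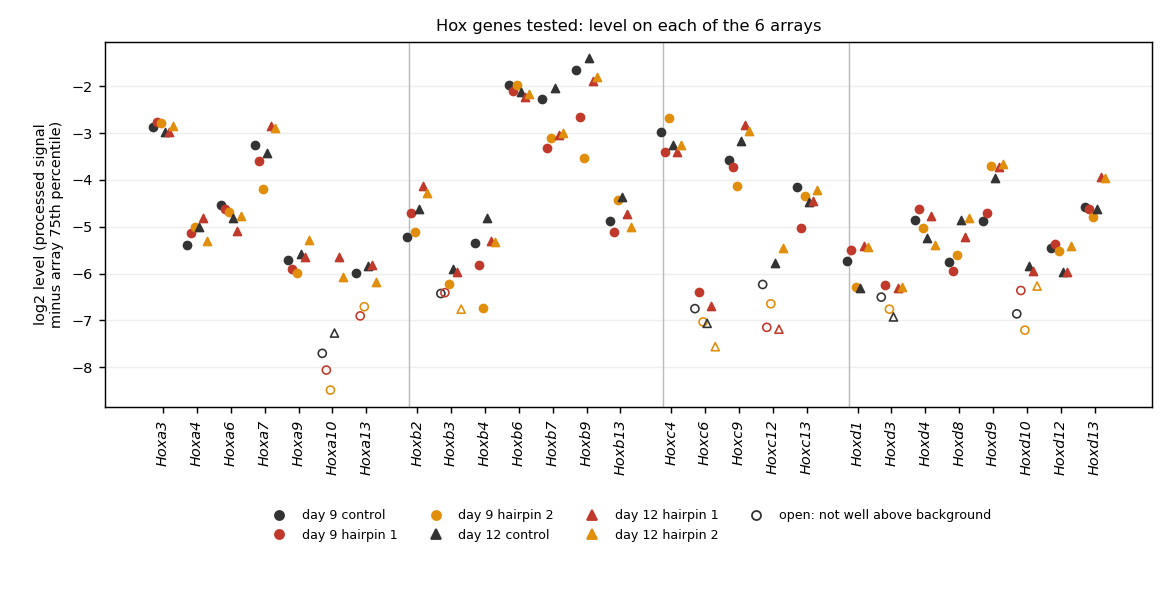
Log2 level (processed signal minus the array's 75th percentile, vertical axis) of the 27 tested Hox genes on each array, grouped by cluster. Circles are day 9 and triangles day 12, colours mark the vector, and open symbols are arrays on which the probe was not well above background. The levels span -8.49 to -1.41, and the black control symbols of Hoxb7 and Hoxb9 lie above all their coloured knockdown symbols.

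Knockdown was compared with control over both days to see whether loss of Dazl moves the Hox genes. With limma no Hox gene was called at an adjusted p under 0.05, and none of the 20233 genes was (percent called 0.0%). The lowest p-values belonged to 3 central and posterior genes of cluster b, Hoxb7, Hoxb9 and Hoxb4, each lower than the same-day control on all 4 knockdown arrays. Over all genes 17.2% were lower in all 4 pairs. At an unadjusted p under 0.05 these 3 of 27 were counted, against 9.93% of all genes in either direction and 4.88% in the lower direction. In RNA from sorted cells, fewer cells with a transcript and less of it per cell cannot be told apart.

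Hoxb7 gave the clearest separation. Its processed signal was 130 and 171 on the day 9 and day 12 control arrays, 65.5 and 82.7 under hairpin 1, and 86.1 and 80.2 under hairpin 2. The 4 knockdown values did not reach either control. The log2 level was -2.15 ± 0.17 (SD, n = 2) in the controls and -3.12 ± 0.15 (SD, n = 4) on the knockdown arrays, a difference of -0.97 (SE 0.14, 95% interval -1.30 to -0.63, 1.95-fold lower). Its adjusted p in limma was 0.172, short of the threshold. The 4 knockdown arrays are 2 hairpins on 2 days, so they are not 4 independent knockdowns. With the vector as a block the SE was 0.14 and the limma adjusted p 0.0906.

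For Hoxb9 the brighter probe gave 201 and 264 in the day 9 and day 12 controls, 104 and 185 under hairpin 1, and 64.1 and 182 under hairpin 2. All knockdown values were below both controls, and the test of a change in the gap between the days gave 1.01 (SE 0.57, limma adjusted p 0.9998). The log2 difference was -0.95 (SE 0.33, limma adjusted p 0.444). It was -0.44 without the day 9 control and -1.45 without the day 12 control. The dimmer Hoxb9 probe gave 71.9 and 72.2 in the controls, 37.3 and 48.2 under hairpin 1, and 34.9 and 34.5 under hairpin 2, with a log2 difference of -0.94 (SE 0.20). Among genes in general, 10.4% had all 4 knockdown arrays below both controls, and among the Hox genes these were Hoxb7 and Hoxb9.

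Hoxb4 was dimmer, at 15.4 and 24.8 in the controls, 11.7 and 17.3 under hairpin 1, and 6.98 and 15.8 under hairpin 2. The day 12 knockdown values exceeded the day 9 control, so the groups overlap across days. The log2 difference was -0.71 (SE 0.28, limma adjusted p 0.484). With normexp background correction, a model-based subtraction with an offset of 50, Hoxb4 came to 0.10, Hoxb7 to -0.51 and Hoxb9 to -0.53. The median of all genes moved to 0.115 there, so Hoxb4 lay at -0.012 relative to it. Between Hoxb4 and Hoxb9 on the chromosome also lie Hoxb5, above background on 1 array, Hoxb6, at -0.07 (SE 0.13, 95% interval -0.39 to 0.25), and Hoxb8, of which neither probe was above background on any array.

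**Figure D3:**
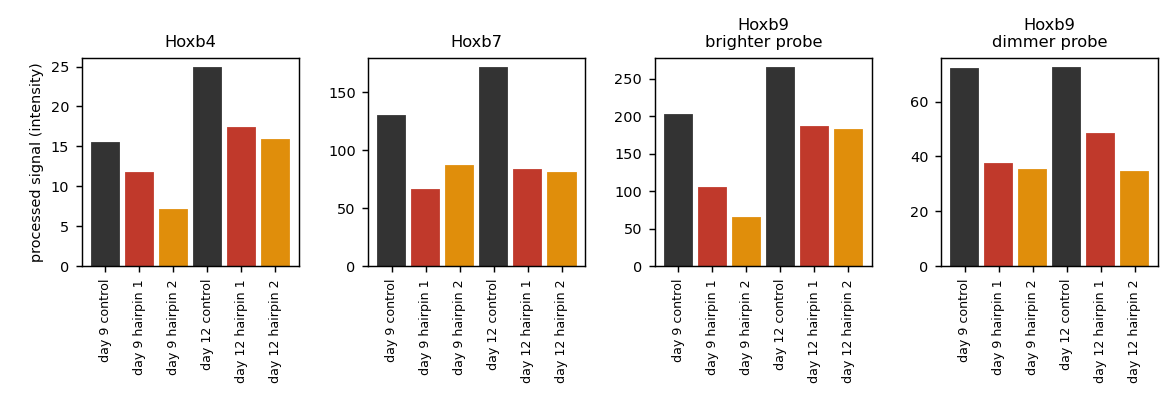
Processed signal (intensity, vertical axis from 0, a scale of its own in each panel) of Hoxb4, Hoxb7 and the brighter and dimmer Hoxb9 probes on the 6 arrays, 1 bar per array. In each panel the black control bar is the tallest of its day, for example 130 for Hoxb7 at day 9 against 65.5 and 86.1 under the hairpins.

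The remaining genes of low p were mixed in direction. Hoxa13 was lower by -0.49 (SE 0.21, limma adjusted p 0.524) and Hoxc12 by -0.60 (SE 0.47, adjusted p 0.719). Hoxa13 ran from -0.16 without the day 9 control to -0.81 without the day 12 control, and Hoxc12 from -0.24 without the day 12 hairpin 1 array to -0.98 without the day 12 hairpin 2 array. Both turned to above 0 with normexp, each at 0.22, above the median of all genes. Hoxb2 was at 0.36 (SE 0.17, adjusted p 0.539) and Hoxd9 at 0.47 (SE 0.30, adjusted p 0.656), and both were higher in 4 of 4 pairs, as was Hoxa3, against 16.2% of all genes. Hoxd9 ran from 0.23 without the day 9 hairpin 2 array (0.27 without the day 9 control) to 0.67 without the day 12 control. The 2 Hoxb2 probes differed in sign, the dimmer giving -0.31 (SE 0.35), and so did the 2 Hoxd13 probes, at 0.27 (SE 0.22) and -0.51 (SE 0.57). Both Hoxd9 probes were higher, at 0.47 and 0.46. Hoxd3, on neither control above background, had a fitted value 1.25-fold higher on the knockdown arrays (mean level -6.40 against -6.71, adjusted p 0.689). The 95% interval of this log2 difference was -0.23 to 0.86. It passed the filter through knockdown arrays alone, and its fitted difference ran from -0.003 without the day 12 control to 0.64 without the day 9 control. Below, a change of at least some fold is a bound that sets the bright group's mean against the dim group's arrays. Each dim array is taken at no less than the lowest signal well above background there. The bound leaves out the spread between arrays, so it is not the lower end of an interval.

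Taking the 27 tested genes as a list, the median log2 difference was -0.06, with 10 genes higher and 17 lower (49.6% of all genes were higher), against a median of -0.003 over all genes, and with normexp it became 0.24 with 25 higher, where all genes moved to 0.12. By cluster the medians were -0.05 in a, -0.20 in b, -0.07 in c and 0.21 in d. The anterior genes had a median of 0.32 over 5 genes, the central ones -0.07 over 10 and the posterior ones -0.08 over 12. These are counts over genes that passed the filter and carry no test.

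**Figure D4:**
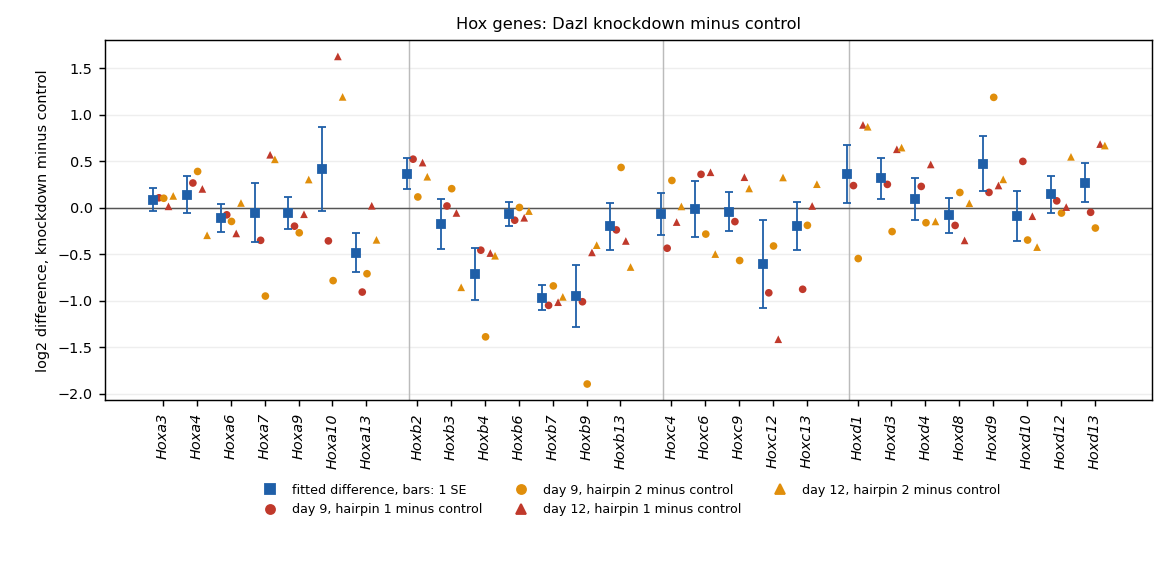
Log2 difference, knockdown minus control (vertical axis), of the 27 tested Hox genes, grouped by cluster. Blue squares are the fitted difference with bars of 1 SE, and the other symbols are the 4 single pairs. Hoxb4, Hoxb7 and Hoxb9 lie below 0 in all 4 pairs. With normexp background correction Hoxb4 is at 0.10, which is -0.012 relative to the median of all genes.

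The difference between the days asks whether longer differentiation changes Hox transcripts. No Hox gene was called, while 30 of the 20233 genes were (percent called 0.148%). At an unadjusted p under 0.05, 8 of 27 Hox genes were counted, all higher at day 12 (7.21% of all genes were higher at that p), and normexp turned 6 of these 8 to the opposite sign, all but Hoxc9 and Hoxb9. The 3 genes Hoxa10, Hoxc12 and Hoxd10 passed the filter through day 12 arrays alone, which favours a higher day 12 value. Among the 24 Hox genes above background on both days, 6 were counted as higher at that p, against 6.47% of all genes above background on both days. All 3 day 12 arrays lay above all 3 day 9 arrays for 7 Hox genes, Hoxa9, Hoxa10, Hoxb2, Hoxb4, Hoxc9, Hoxd8 and Hoxd10, against 8.92% of all genes, and without Hoxa10 and Hoxd10 these are 5 of the 24, against 8.28%. The reverse held for Hoxa6 and Hoxb6, against 8.19% of all genes. Higher values in all 3 vectors were seen in 11 Hox genes, against 20.5% of all genes.

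Hoxd8, a trunk gene, had the lowest p of the day comparison. Its processed signal was 11.6, 10.6 and 15.4 at day 9 and 24, 18.4 and 22.6 at day 12, with no overlap. The log2 level was -5.77 ± 0.18 (SD, n = 3) at day 9 and -4.97 ± 0.22 (SD, n = 3) at day 12, a difference of 0.80 (SE 0.17, 1.74-fold, limma adjusted p 0.156). With normexp it was -0.26. Hoxc9 had signals of 53.0, 49.8 and 42.4 at day 9 and 78.3, 96.1 and 82.3 at day 12. It was higher by 0.83 (SE 0.20, adjusted p 0.187), and stayed above 0 with normexp, at 0.18. Hoxb2 had signals of 16.9, 25.3 and 21.7 and then 28.5, 39.0 and 32.7, a difference of 0.66 (SE 0.16, adjusted p 0.185). The dimmer Hoxb2 probe gave 0.47 (SE 0.33), and normexp gave -0.12 for the brighter one.

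Hoxa10 and Hoxd10 were below background on all day 9 arrays, so only a bound can be given. Hoxa10 was at least 1.53-fold higher at day 12 (mean level -6.33 against -8.08, limma adjusted p 0.193), with 2 of 3 day 12 arrays above background. Hoxd10 was at least 1.66-fold higher (mean level -6.01 against -6.81, adjusted p 0.303), likewise with 2 of 3. Both genes passed the filter only through day 12 arrays, so their direction here is in part set by that filter. Hoxb4 was higher by 0.81 (SE 0.26, adjusted p 0.309) and Hoxa13 by 0.60 (SE 0.20, adjusted p 0.319). For Hoxb9 the brighter probe gave 0.91 (SE 0.31, adjusted p 0.332) and the dimmer 0.12 (SE 0.18). Hoxd13 gave 0.49 (SE 0.20) by its brighter probe, and -0.10 with normexp, which is 0.013 relative to the median of all genes. The dimmer Hoxd13 probe, not above background at day 9, was at least 2.22-fold higher. That probe too passed the filter only through day 12 arrays, so its direction is in part set by that filter. The 2 probes of Hoxb6 differed in sign, at -0.15 (SE 0.13) and 0.02 (SE 0.26).

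Over the 27 tested genes the median day difference was 0.21 with 20 higher (50.3% of all genes were), against 0.002 over all genes, and it turned to -0.25 with 3 of 27 higher under normexp, where the median of all genes moved to -0.12. Without either control array the median was 0.46. By position, the posterior genes (paralogs 9 to 13) had a median of 0.57 with 11 of 12 higher, all but Hoxd12. Over the 9 of them above background on both days the median was 0.48 (0.138 over all 24 such Hox genes) with 8 higher. With normexp 2 of the 12, Hoxb9 and Hoxc9, were above 0, and 4 were above the median of all genes. The central genes had a median of -0.01 with 5 of 10 higher, and the anterior ones 0.12 with 4 of 5 higher. The control vector alone gave a median of 0.17 over the 27 genes, hairpin 1 0.38 and hairpin 2 0.48.

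**Figure D5:**
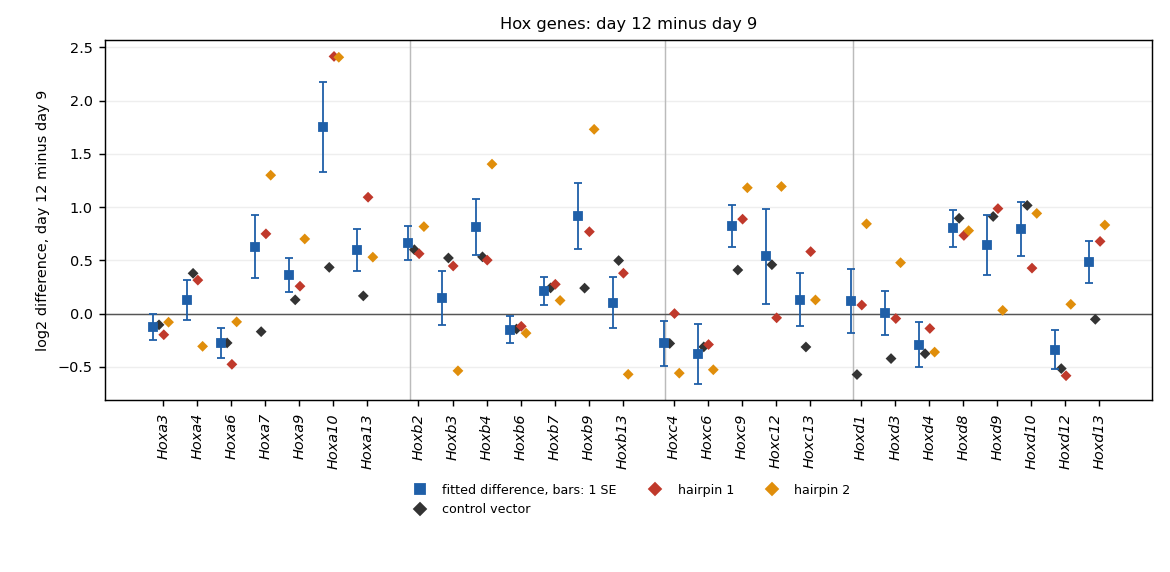
Log2 difference, day 12 minus day 9 (vertical axis), of the 27 tested Hox genes, grouped by cluster, with the fitted difference (blue squares, bars 1 SE) and the difference within each vector (diamonds). Of the 12 genes of paralog number 9 to 13, 11 have a fitted difference above 0, among them Hoxa10, Hoxc12 and Hoxd10, above background on day 12 arrays only. With normexp background correction 24 of the 27 genes lie below 0.

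The knockdown was also compared within each day. With the vector as a block, this fit kept only 1 residual degree of freedom. Its variance estimate then came mostly from all genes (18.12 prior degrees of freedom). At day 9 no Hox gene was called (percent called 0.00494%), with 3 at an unadjusted p under 0.05 against 4.30% of all genes. Hoxb9 was lower by -1.45 (SE 0.40, limma adjusted p 0.959) and Hoxb7 by -0.94 (SE 0.23, adjusted p 0.959). Hoxb4 was at -0.92 (SE 0.42). Hoxa13 was not above background on the day 9 knockdown arrays and was at least 1.71-fold lower there (mean level -6.80 against -6.00, adjusted p 0.959). With the vector as a block Hoxb9 was called at day 9 (adjusted p 0.0268), when 1.23% of all genes were, and the range of its adjusted p over the other alternatives was 0.192 to 0.9996.

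At day 12 no Hox gene was called either (percent called 0.00494%), with 3 at an unadjusted p under 0.05 against 5.06% of all genes. Hoxa10 was not above background on the day 12 control array, and with signals of 13.7 and 9.44 under the hairpins against 4.54 in the control it was at least 2.14-fold higher (mean level -5.86 against -7.27, limma adjusted p 0.876). With the vector block Hoxa10 was called (adjusted p 0.0166), when 1.28% of all genes were. It had entered the tests only through these 2 day 12 knockdown arrays, so the filter favoured this direction, and over the other alternatives its adjusted p ran from 0.416 to 1. Hoxb7 was lower by -0.99 (SE 0.23, adjusted p 0.876). Hoxd13 was at 0.67 (SE 0.23, adjusted p 0.966) by its brighter probe. The dimmer Hoxd13 probe, above background on all 3 day 12 arrays, was at -5.67 in the control, -5.73 under hairpin 1 and -5.46 under hairpin 2, with the control between the hairpins. Hoxd1 was at 0.88 (SE 0.37, adjusted p 0.998). Hoxb7 thus had nearly the same fitted difference on both days, -0.94 and -0.99.

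The test of whether the knockdown difference itself changed between the days called no Hox gene and no gene at all (percent called 0.0%), with 2 Hox genes at an unadjusted p under 0.05 against 1.74% of all genes. These were Hoxa7 at 1.19 (SE 0.45, limma adjusted p 0.9998) and Hoxa10 (adjusted p 0.9998). For Hoxa10 no size is given, since the probe was above background only on the 2 day 12 knockdown arrays through which it passed the filter. Hoxd13 followed at 0.81 (SE 0.32) by its brighter probe and Hoxd1 at 1.03 (SE 0.52). The 5 genes Hoxa7, Hoxa10, Hoxc9, Hoxc13 and Hoxd13 were lower in both day 9 pairs and higher in both day 12 pairs, against 8.19% of all genes. Of these, Hoxa10 had no array above background at day 9, and the dimmer Hoxd13 probe did not share the pattern at day 12. The 4 other than Hoxa7 are posterior genes, a group of 12 among the 27 tested. Over the 27 genes the median change in the knockdown difference was 0.119 with 16 higher (all genes 0.045). With normexp it was -0.255 with 4 higher (all genes -0.112). The median knockdown difference at day 9 was -0.07 with 10 higher, and with normexp 0.39 with 25 higher (all genes 0.16). At day 12 these were -0.05 with 13 higher, and 0.09 with 23 higher (all genes 0.07).

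The hairpins were compared over both days, as the labels name 2 of them against Dazl. They are numbered 1 and 2 here as in the sample titles, while the deposited files number them 2 and 3. No Hox gene was called (percent called 0.00988%), and 4 had an unadjusted p under 0.05 against 11.6% of all genes. Hoxc6 passed the filter through the hairpin 1 arrays alone and was at least 1.265-fold higher under hairpin 1 (mean level -6.54 against -7.30, limma adjusted p 0.185). Hoxc12 was above background under hairpin 2 at day 12 and never under hairpin 1, at least 1.825-fold higher under hairpin 2 (mean level -6.05 against -7.17, adjusted p 0.266). Its fitted log2 difference was 1.12 with all arrays and without either control, and 0.627 to 1.613 without 1 of the hairpin arrays. Each fit without an array leaves a vector with a single array. Hoxc12 was called in some of these fits, where many more genes were called than with all arrays. Hoxd4 was lower under hairpin 2 by -0.50 (SE 0.17, adjusted p 0.344). Hoxd10 was at least 1.41-fold higher under hairpin 1 (mean level -6.15 against -6.74, adjusted p 0.373). Its probe was above background on 1 of the 2 hairpin 1 arrays, that of day 12, and on no hairpin 2 array. The median over the 27 genes was -0.09, against 0.02 over all genes, and with normexp 0.46 against 0.17.

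Genes known to act with or upon the Hox genes were examined as lists, together with genes chosen because they lie beside the clusters. None of the 88 tested members, 14 flanking genes included, was called by limma between knockdown and control or between the days. At an unadjusted p under 0.05 there were 13 and 10 of them. These are 14.8% and 11.4%, against 9.93% and 12.0% of all genes. The TALE homeodomain cofactors, which bind DNA together with Hox proteins, were above background for all 9 listed, with 4 higher and 5 lower under knockdown and a median of -0.05. Pbx4 was at 0.40 (SE 0.17) and Pbx2 at -0.31 (SE 0.16). Of the Cdx and ParaHox genes, 4 of 6 were tested. Gsx2, a ParaHox gene of the forebrain, gave the widest knockdown difference of these lists. Its level was -0.93 and -1.79 in the day 9 and day 12 controls, -3.33 and -3.36 under hairpin 1, and -3.73 and -3.54 under hairpin 2. All 4 knockdown arrays were below both controls, at a difference of -2.13 (SE 0.26, limma adjusted p 0.166). Cdx2, a direct activator of central Hox genes in the embryo, was at 0.49 (SE 0.82), with the hairpins on opposite sides of the control. Hairpin 1 was higher than the same-day control by 1.61 at day 9 and 1.63 at day 12, and hairpin 2 was at -0.85 and -0.44 against it. Cdx4 was above background on no array. The even-skipped genes beside clusters a and d were at -0.06 for Evx1 and -0.06 for Evx2, and Evx2 was at 0.47 (SE 0.20) between the days. Evx1 was above background on only 1 of 2 controls and 1 of 4 knockdown arrays, so its value gives no measured size.

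Of the 11 Polycomb repressive complex 2 genes, which place the mark that silences Hox clusters, 9 were lower and 2 higher under knockdown (49.6% of all genes were higher), with a median of -0.15. Suz12 was at -0.55 (SE 0.15), Phf19 at -0.56 (SE 0.17) and Rbbp7 at -0.57 (SE 0.21), the 3 of the 11 at an unadjusted p under 0.05, against 4.88% of all genes lower at that p. Complex 1 genes had a median of 0.01 over 13, with Phc1 at 0.57 (SE 0.14). The 11 trithorax genes, which counter Polycomb, had a median of -0.03. Between the days the medians were 0.06 for complex 2, -0.04 for complex 1 and 0.10 for the trithorax genes. Aebp2, a complex 2 cofactor, was at 0.62 (SE 0.24).

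The retinoic acid genes had 17 tested members. Under knockdown 11 were higher and 6 lower, with a median of 0.10, and Aldh1a3, an enzyme that makes retinoic acid, was at 0.98 (SE 0.16, limma adjusted p 0.202). Rarg, a retinoic acid receptor, was at 0.72 (SE 0.26). Between the days 5 were higher and 12 lower, with a median of -0.21. Rxrg, a retinoid X receptor, was higher at day 12 by 1.22 (SE 0.18, adjusted p 0.0984, and 0.0321 with the vector block). Cyp26b1, which degrades retinoic acid, was at 0.56 (SE 0.18) and Dhrs3 at 0.62 (SE 0.20). Among 7 tested posterior growth signals T, the brachyury gene, was at 0.79 (SE 0.26) and Gdf11, which turns on posterior Hox genes in the embryo, at -0.51 (SE 0.18) under knockdown. Wnt3a was at 0.76 (SE 0.30) between the days. The 14 genes flanking the clusters had a knockdown median of -0.12 and a day median of -0.01. Skap1, beside cluster b, was at -0.63 (SE 0.15), Atf2, near cluster d, at -0.45 (SE 0.14) and Snx10, near cluster a, at -0.31 (SE 0.13).

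Markers of other cell types were set beside these values. Their level is the sum over a list of the signal relative to the array's 75th percentile, so a bright gene can make up most of it. All 18 fibroblast and mesenchyme genes were above 0 under knockdown, where 49.6% of all genes were higher. Their median was 0.45 over both days, 0.19 at day 9 and 0.85 at day 12. The summed level was 20.9 to 28.8 in the controls and 24.01 to 35.1 on the knockdown arrays. Between the hairpins the median was 0.44, and 6 of the 18 had an unadjusted limma p under 0.05, against 11.6% of all genes. Of these 6, 5 were higher under hairpin 2. Fbn1 was at 0.81 (SE 0.16) and Twist2 at 0.71 (SE 0.15), while Lum was above background on 1 of 2 controls and 3 of 4 knockdown arrays, so that its mean levels of -7.44 and -5.28 give no measured size. Of 10 tested endoderm genes 9 were higher, with a median of 0.88 and a summed level of 1.57 to 1.78 against 2.27 to 3.54. The hairpins differed on the endoderm list as well. Between them 7 of the 10 had an unadjusted limma p under 0.05, against 11.6% of all genes. Of these, 3 were higher and 4 lower under hairpin 2. Under knockdown Afp was at 2.27 and Apoa1 at 2.22 (each limma adjusted p 0.0498 with the vector block, which called 0.0988% of all genes). Ttr was above background on no array. Of 11 neural genes 10 were higher, summed at 3.63 to 3.86 against 4.89 to 6.17, with Stmn2 at 1.60 (adjusted p 0.0498 with the block). The paraxial, limb and posterior mesoderm genes had 5 of 11 higher and summed to 8.82 to 11.8 against 10.3 to 24.3. That sum rests mostly on Tcf15, at a mean log2 level of 3.22 in the controls and 3.99 on the knockdown arrays. Pax3 and Mixl1 were above background on no array. The blood and endothelium genes had 5 of 8 higher (1.55 to 1.88 against 1.40 to 2.17), with Spi1 and Ptprc above background on no array and Gata1 at -1.17 (SE 0.23). The kidney and reproductive tract genes had 3 of 4 higher (0.163 to 0.176 against 0.170 to 0.271), with Pax8 and Emx2 above background on no array.

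Of the labelled cell type, all 11 germ cell markers with a probe were above background and 10 were lower under knockdown, with a median of -0.32. Dazl, which the hairpins target, is 1 of these 10, so its direction was set in advance. The summed level was 196.5 to 260.8 against 95.35 to 215.3. It rests mostly on Stra8, at a mean log2 level of 7.42 in the controls and 6.67 on the knockdown arrays. Next to Dazl, Mael was at -0.80 (SE 0.22) and Stra8 at -0.75 (SE 0.26). Of 10 pluripotency genes 9 were higher, with a median of 0.31, among them Tdgf1 at 1.03 (SE 0.19) and Pou5f1 at 0.69 (SE 0.15). Their summed level was 608.7 to 792.4 against 736.7 to 861.7. It rests mostly on Dppa5a, at a mean log2 level of 9.17 in the controls and 9.32 on the knockdown arrays. Between the days 8 of 18 fibroblast genes were higher and 10 lower, with a summed level of 28.8 to 35.1 at day 9 and 20.9 to 33.2 at day 12. Col1a2 was at -1.35 (SE 0.36), Twist2 at -0.58 (SE 0.15) and Tagln at -0.81 (SE 0.23), while Lum was higher at day 12 (limma adjusted p 0.0116 with the block). Lum was above background on 1 of 3 day 9 arrays and all 3 day 12 arrays, at mean levels of -7.40 and -4.60. In the mesoderm list Meox1 was at 0.96 (SE 0.19), above background on 1 of 3 day 9 arrays. Meox2, on no day 9 array and 2 of 3 day 12 arrays, was at least 1.67-fold higher at day 12 (mean level -6.21 against -7.57, limma adjusted p 0.283). In that list 6 of 11 were higher and the summed level, again mostly Tcf15, was 10.3 to 24.3 at day 9 and 8.82 to 23.0 at day 12. The part of these cell types in the Hox values was not tested.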

How the data were processed

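Expression was measured on 6 Agilent 1-colour arrays, 1 per sample. Per the file headers, the authors scanned and quantified the arrays with Agilent Feature Extraction 9.1.3.1, which deposited a background-subtracted and detrended intensity per spot with a surrogate for spots near background. The deposited quality score of each spot was used only to match the authors' table to spots. The authors' deposited table of processed values holds ratios of the background-subtracted signal to a constant of each array, 59.2 to 68.6, with a median of 1, and all 41529 entries matched 1 spot within a tolerance of 1e-06. How that table was made is not given in the sources used here.

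Each deposited processed intensity was taken to log2, and spots of a probe were averaged, without those flagged as outliers unless all were flagged. The 75th percentile of the array's probe values was then subtracted. Probes well above background on 2 or more arrays were kept, and the brightest kept probe stood for its gene. Probes were named by accession and then by symbol through RefSeq's gene table. Of the 48 probes of members, the accession of 43 names the same gene there and that of 5 was not in the table. limma 3.58.1 in R 4.3.3 fitted all genes, with knockdown and day as terms (3 residual degrees of freedom), the 4 groups of day by knockdown (2), or day and vector for the hairpins (2). A lone control array of a day is there assumed to vary like the other groups. The vector block left 2 residual degrees of freedom for knockdown and day. It left 1 for the comparisons within a day and their change between the days. P-values are two-sided and were adjusted by Benjamini-Hochberg over the 20233 genes with a threshold of 0.05. The fit was tested on simulated data. The vectors pair the arrays across days: deviations of same-vector arrays correlated at 0.37, 0.53 and 0.25 for control, hairpin 1 and hairpin 2. Their number limits the precision of the arrays.

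The members, gene lists, promoter motifs and alternatives were chosen with earlier results of these data known. All members with a kept probe are described. Statistics are given for the 8 of lowest p in the knockdown and day comparisons, the 4 of lowest p in each other one, and up to 3 of each list. Alternatives were normexp correction, quantile normalization, no filter, a filter on all 6 arrays, the mean of a gene's probes, the authors' table, the background-subtracted signal floored at 4 units, a trended robust prior, the vector block, and each array left out. Some genes of the pathway and marker lists count in the list totals and are not reported by name here.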

Additional observations from a re-analysis of the deposited data

Results flagged for a closer look

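Each group holds 1 or 2 arrays, too few to look for a single array far from the rest of its group, and no Hox gene passed the test of a knockdown difference that changes between the days. The values that follow come from probes that did not enter the tests, since they were well above background on 1 array only, and that were brighter on that knockdown array than on both controls. Hoxa11, a gene of the forearm and uterus, had a processed signal of 47.2 on the day 9 hairpin 2 array, against 6.45 and 1.41 on the day 9 and day 12 controls and 4.67 on the day 12 hairpin 2 array. Hoxb5 had 13.9 on the day 9 hairpin 1 array, against 2.97 and 3.68 on the controls. Hoxc5 had 7.71 on the day 9 hairpin 2 array, against 3.66 and 4.10. The dimmer Hoxa4 probe had 10.3 on the day 12 hairpin 1 array, against 1.61 and 7.05. In each case the probe was well above background on that array alone. Without reaching that mark, Hoxc5 had 5.67 under hairpin 2 at day 12 against 4.10 in the control of that day, and the Hoxa4 probe had 4.76 under hairpin 1 at day 9 against 1.61. No difference was tested.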

How the results depend on the processing

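Background correction turned most directions. With normexp 15 of the 27 Hox genes changed sign for knockdown and 17 for day, or 12 and 14 relative to the median of all genes. Normexp correction moved the median of the Hox genes to 0.24 for knockdown, -0.25 for day and 0.46 for hairpin 2 against hairpin 1 (main values -0.06, 0.21 and -0.09), and the medians of all genes to 0.115, -0.115 and 0.174 (main values -0.003, 0.002 and 0.017). It reversed Hoxb4 (0.10, which is -0.012 relative to all genes), Hoxa13 (0.22) and Hoxc12 (0.22) for knockdown, and Hoxd8 (-0.26), Hoxb2 (-0.12), Hoxa10 (-0.25), Hoxd10 (-0.33), Hoxb4 (-0.20) and Hoxa13 (-0.29) for day. The hairpin median was -0.026 without a filter, 0.079 with detection on all 6 arrays and -0.19 with the mean of a gene's probes. The replicate block on the vector called 1 Hox gene at day 9, Hoxb9, and 1 at day 12, Hoxa10, and raised the count over all genes from 0 to 20 for knockdown and from 30 to 301 for day. Among the members, and among the genes of the lists for knockdown and day, it changed no other call than those printed beside their values. With 1 array left out at a time, the medians were -0.07 to 0.07 for knockdown and 0.23 to 0.46 for day. For the hairpins they were -0.21 to 0.084. Hoxc12 was the only Hox gene called between the hairpins in any of these fits. Its difference was 1.12 without either control and 0.627 to 1.613 without 1 of the hairpin arrays. Such a fit leaves a vector with a single array, and where Hoxc12 was called many more genes were called than with all arrays. Hoxb9 ran from -1.453 to -0.442 for knockdown. Hoxd3 ran from -0.003 (without the day 12 control) to 0.636 for knockdown. Of 234 values for the 8 genes of lowest p in each of the knockdown and day comparisons, 224 kept their sign and their side of the threshold. The causes were not tested. The negative control spots had an SD of 1.33 to 1.64 signal units, and the dimmest tested value was 2.08.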
